A study of Homo sapiens with 8 samples.

Results

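The 10 genes PDSS1, PDSS2, COQ2, COQ3, COQ4, COQ5, COQ6, COQ7, COQ8A and COQ9 encode the core enzymes and factors that make coenzyme Q, and they were taken by symbol from a table of 38010 genes measured in 8 RNA-seq libraries. All 10 were found, and all 10 were among the 15184 genes with enough counts to be tested. The libraries came from Ea.hy926, a human cell line that is a fusion of endothelium from the umbilical vein with the lung carcinoma line A549. In the parental group (Eahy), 4 biological replicates were collected at confluence. The other group was the Rho0 derivative of the same line, deficient in oxidative phosphorylation, with 4 biological replicates also collected at confluence. No drug treatment separates the groups in the labels, and the sources used here do not say how the Rho0 line was derived or from how many clones. P-values therefore measure the spread between cultures of 1 parental and 1 Rho0 line, and other differences between the lines cannot be told apart from the loss of respiration.

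Coenzyme Q is a lipid of the mitochondrial inner membrane that carries electrons from complexes I and II, and from several other dehydrogenases, to complex III. Its polyprenyl tail is built from products of the mevalonate pathway, is joined to an aromatic ring derived from tyrosine, and the ring is then hydroxylated, methylated and decarboxylated in mitochondria by enzymes that assemble into a complex. In cells without mitochondrial DNA the electron path beyond coenzyme Q is missing, since complexes III and IV need subunits encoded there, but the enzymes that make coenzyme Q are all encoded in the nucleus.

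Total estimated counts ranged from 11721448 to 37203313 a library, with 1 count worth 0.0269 to 0.0853 CPM (counts relative to the library total) before scaling. Transcripts of mitochondrial DNA made up 16.05% to 21.4% of the counts in the parental libraries and 0.00296% to 0.149% in the Rho0 libraries, the highest Rho0 value being that of replicate 2. The endothelial markers PECAM1, CDH5, VWF, TEK, ERG, KDR and TIE1 were present in all 8 libraries, CLDN5 was under 1 CPM in each, and the summed endothelial level was 3630 to 3890 CPM in the parental and 4170 to 4430 CPM in the Rho0 libraries. The sum joins opposite changes, with 4 of 7 tested markers called higher in Rho0 (KDR from 13.8 to 130.4 and PECAM1 from 1085 to 2116 CPM among them) and CDH5 lower, from 1716 to 1033 CPM. The epithelial list of 5 genes was KRT8 and KRT18 almost entirely. It summed to 1730 to 1920 CPM in the parental and 655 to 1090 CPM in the Rho0 libraries. KRT8 and KRT18 were called lower, while EPCAM was called higher, with means of 0.43 CPM in the parental and 0.95 CPM in the Rho0 group. CDH1 was not called, and KRT19, at 0.13 CPM in both groups, was not tested. KRT8 and KRT18, markers of the fusion partner, thus moved with the groups, and their part in the results was not tested. Mesenchymal and blood lists stayed at or under 2.42 CPM in sum, with HBB at 0 throughout. Rho0 replicate 4 stood apart from the other Rho0 libraries on the second principal component (35.28, against -23.73 to 0.46).

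COQ7 had the largest change of the 10 genes, and its level was 1.77-fold higher in Rho0, while COQ4, COQ9, COQ8A and COQ5 were lower relative to other genes (but not when scaled by library size alone) and PDSS2 was slightly higher. In bulk RNA, fewer cells expressing a gene and less of its RNA per cell cannot be told apart. Levels are in CPM over library sizes scaled by TMM, a method that assumes that most genes do not differ. That assumption is not secured here, since 54.4% of all genes tested were called. A gene is called when its adjusted p lies under 0.05 in edgeR's quasi-likelihood test, adjusted by Benjamini and Hochberg over all 15184 genes. By that rule 2 of the 10 were higher in Rho0 and 4 lower. Of all genes tested, 29.0% were called higher and 25.4% lower, 54.4% in either direction, so that 6 of 10 is a share near the background. The median log2 fold change was -0.15 over the 10 genes and 0.05 over all genes tested. CPM ranges of the 2 groups did not overlap for 6 of the 10, against 50.9% of all genes.

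The sequences upstream of COQ7 and COQ9 are shown because the 2 proteins work as partners and the ratio of their transcripts differed most between the lines among the pairs compared. Each run holds the 250 bases before the RefSeq start site on the gene's own strand (GRCh38.p14), at chr16:19067364-19067613 for COQ7 and chr16:57447229-57447478 for COQ9, both on the plus strand. Capitals mark matches, on either strand, to the motif letters described next.
COQ7: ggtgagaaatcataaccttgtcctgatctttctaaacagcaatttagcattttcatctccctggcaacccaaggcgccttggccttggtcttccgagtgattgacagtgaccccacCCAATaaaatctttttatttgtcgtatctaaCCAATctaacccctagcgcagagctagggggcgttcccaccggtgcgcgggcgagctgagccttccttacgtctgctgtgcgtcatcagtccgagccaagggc
COQ9: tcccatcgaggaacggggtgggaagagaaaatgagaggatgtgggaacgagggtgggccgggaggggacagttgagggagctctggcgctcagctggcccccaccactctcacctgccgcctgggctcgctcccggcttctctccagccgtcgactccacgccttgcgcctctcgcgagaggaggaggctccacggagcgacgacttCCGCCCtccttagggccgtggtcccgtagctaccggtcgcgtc

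In these runs COQ7 had 2 matches to CCAAT, the box bound by NF-Y, beginning 134 and 103 bases before the start, and COQ9 had 1 match to the reverse of GGGCGG, the GC box bound by SP1, beginning 43 bases before it. GC content was 52.0% for COQ7 and 67.6% for COQ9. RefSeq windows of 300 bases, from 250 before to 50 after the start, were found for 8 of the 10 genes (COQ3 and COQ4 are not in the table), and for a gene with several starts the one nearest the GENCODE gene start was read. The RefSeq starts lie within 116 bases of the GENCODE start except for COQ5 (5276 bases away) and COQ8A (42758 bases away). GGGCGG was in 5 of the 8 windows and in 45.0% of all 35116 windows, and CCAAT was in 4 of 8 against 34.6%. AANATGGCG, the YY1 motif, was in the windows of PDSS2, COQ5 and COQ9, against 3.19% of all windows. These matches lie after the start site, beginning at bases 9, 15 and 25 of the transcribed side, and so outside any upstream run. The CCAAT and YY1 matches in PDSS2 overlap. TGACGTCA, the cyclic AMP response element, was in COQ2 alone of the 8 (1.85% of all windows), and TCACNCCAC, a sterol response element of SREBP, in COQ5 alone (1.13%). The NRF1 motif, a palindrome of GC-rich letters (5.78% of all windows), CCGGAAG for GABPA (10.3%), AAGGTCA for estrogen-related receptors (3.92%) and TGATGNAA for ATF4 with C/EBP (3.62%) had no match in any of the 8. Both strands were searched for all 9 motifs, and a match is a string of letters, not a measured site.

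PDSS1 and PDSS2 encode the subunits of the synthase that builds the polyprenyl tail. PDSS2 (chromosome 6, 107152557 to 107459564, in GRCh38 coordinates of the GENCODE 29 gene model, as for the other genes) was at 10.4, 10.6, 10.4 and 9.43 CPM in parental replicates 1 to 4 and at 12.3, 12.3, 13.1 and 11.2 CPM in Rho0 replicates 1 to 4. Each Rho0 value lay above each parental one, and the log2 fold change was 0.26 (SE 0.09, edgeR adjusted p = 0.0283). This call was lost in 11 of 18 alternatives, among them every leave-one-out fit but that without Rho0 replicate 4. With each library corrected for the length and GC content of the genes, PDSS2 was at 0.10 (edgeR adjusted p = 0.467). PDSS1 (chromosome 10, 26697659 to 26746798) was at 4.13, 5.16, 4.38 and 3.62 CPM in the parental libraries and at 4.65, 3.69, 4.20 and 3.83 CPM in Rho0. The groups overlapped, and the log2 fold change was -0.07 with a 95% interval from -0.39 to 0.24 (edgeR adjusted p = 0.680). Its 2 pseudogenes, PDSS1P1 and PDSS1P2, had at most 3 counts in any library, and its exons overlap those of ABI1 on the other strand (log2 fold change 0.69).

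COQ2 encodes the membrane enzyme that joins the tail to the ring. COQ2 (chromosome 4, 83261536 to 83284914) was at 6.69, 7.23, 7.68 and 6.83 CPM in the parental libraries and at 8.80, 7.00, 7.71 and 7.52 CPM in Rho0. The ranges overlapped, Rho0 replicate 1 being the highest library, and the log2 fold change of 0.13 had a 95% interval from -0.10 to 0.36 (edgeR adjusted p = 0.301).

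**Figure D1:**
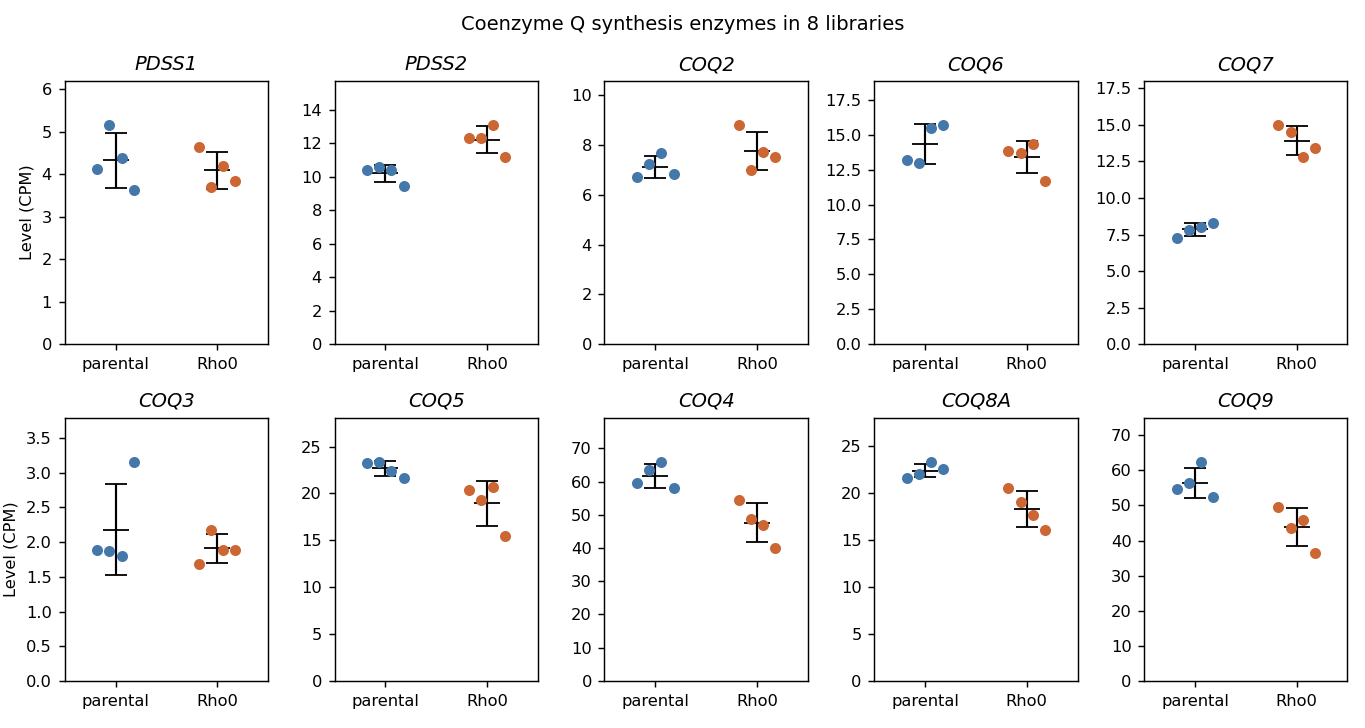
Level of each coenzyme Q synthesis gene in CPM (vertical axis, from 0, own scale per panel) in the 4 parental (blue) and 4 Rho0 (orange) libraries, drawn from replicate 1 on the left to replicate 4 on the right, with the mean and SD as black bars. COQ7 lies at 7.29 to 8.32 CPM in the parental and 12.8 to 15.0 CPM in the Rho0 libraries, while PDSS1, COQ2, COQ6 and COQ3 overlap between the groups.

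Of the ring hydroxylases, COQ7 changed and COQ6 was not called. COQ7 is a di-iron enzyme that carries out the hydroxylation of demethoxy-coenzyme Q, the step before the last methylation. COQ7 (chromosome 16, 19067599 to 19080095) was at 7.29, 7.79, 8.04 and 8.32 CPM in the parental libraries. In Rho0 it was at 15.0, 14.5, 12.8 and 13.4 CPM, so that the lowest Rho0 library lay well above the highest parental one. The means were 7.86 ± 0.436 and 13.89 ± 1.005 CPM (SD, n = 4 each), and the log2 fold change was 0.82 (SE 0.09, 95% interval 0.62 to 1.02, edgeR adjusted p = 2.87e-05). It was called in all 18 alternatives, at 0.75 to 1.21. Of all genes tested, 88.0% had a lower log2 fold change than COQ7. COQ6 is the flavin-dependent hydroxylase of an earlier ring position. COQ6 (chromosome 14, 73949926 to 73963670) was at 13.2, 13.0, 15.5 and 15.7 CPM in the parental libraries and at 13.8, 13.7, 14.3 and 11.7 CPM in Rho0. These ranges overlapped (log2 fold change -0.10, 95% interval -0.33 to 0.13, edgeR adjusted p = 0.428). Exons of COQ6 overlap those of FAM161B on the other strand, which was higher in Rho0 (log2 fold change 1.57), and of ENTPD5 (0.29). The sources used here do not say whether the authors' counting used the strand of the reads.

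COQ3 and COQ5 encode the methyltransferases that act on oxygens and on a carbon of the ring. COQ5 (chromosome 12, 120503274 to 120534434) was at 23.2, 23.4, 22.4 and 21.7 CPM in the parental libraries and at 20.4, 19.3, 20.7 and 15.5 CPM in Rho0. The groups did not overlap, with Rho0 replicate 4 lowest. COQ5 was just within the threshold (log2 fold change -0.26, SE 0.10, edgeR adjusted p = 0.049). Without Rho0 replicate 4 it was at -0.17 and not called (edgeR adjusted p = 0.0578), and 2 of the 8 fits that leave out a library called it. The call was also lost with no filter (edgeR adjusted p = 0.0886) and with a filter of 50 counts (edgeR adjusted p = 0.0605). COQ3 (chromosome 6, 99369400 to 99394204) had the lowest level of the set. It was at 1.88, 1.87, 1.80 and 3.16 CPM in the parental libraries, where replicate 4 stood apart, and at 1.68, 2.18, 1.89 and 1.89 CPM in Rho0. With 29 to 84 counts a library it was not called, and its 95% interval, from -0.67 to 0.26, was the widest of the 10. Its log2 fold change was -0.20, or 0.03 without parental replicate 4 (edgeR adjusted p = 0.434 and 0.995).

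COQ4, COQ8A and COQ9 support the ring reactions. COQ4 acts in the removal of the ring's carboxyl group and in holding the complex together, COQ8A is an atypical kinase-like ATPase needed for the complex, and COQ9 is a lipid-binding protein that presents the substrate to COQ7. COQ4 (chromosome 9, 128322536 to 128334072) was at 59.7, 63.5, 66.0 and 58.0 CPM in the parental libraries and at 54.4, 48.7, 47.0 and 40.1 CPM in Rho0. No Rho0 library reached the lowest parental one, and the log2 fold change was -0.38 (SE 0.10, edgeR adjusted p = 0.00636). COQ9 (chromosome 16, 57447425 to 57461275) was at 54.6, 56.3, 62.5 and 52.4 CPM in the parental libraries and at 49.6, 43.6, 45.9 and 36.5 CPM in Rho0. It was lower by a like amount, with a log2 fold change of -0.36 (SE 0.10, edgeR adjusted p = 0.0105). COQ8A (chromosome 1, 226897536 to 226987545) was at 21.6, 22.0, 23.3 and 22.5 CPM in the parental libraries and at 20.5, 19.0, 17.6 and 16.0 CPM in Rho0. Its groups did not overlap either, and its log2 fold change was -0.29 (SE 0.09, edgeR adjusted p = 0.0176), with the call lost without Rho0 replicate 3 (edgeR adjusted p = 0.0528). Rho0 replicate 4 was the lowest Rho0 library for 6 of the 10 genes and the highest for 0, and Rho0 replicate 1 was the highest for 6. How often this holds over all genes was not counted. Without Rho0 replicate 4, COQ4 was at -0.31, COQ9 at -0.29 and COQ8A at -0.24, all still called. Without Rho0 replicate 1 they were at -0.48, -0.46 and -0.39, also called. Exons of COQ4 and COQ9 overlap those of TRUB2 and CIAPIN1 on the other strand, which were also lower (log2 fold changes -0.31 and -0.83), and exons of COQ5 overlap those of RNF10 (-0.28).

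The direction of the 4 lower genes depended on how libraries were scaled, whereas that of COQ7 and PDSS2 did not. Scaled by library size alone, where mitochondrial transcripts fill part of the parental totals, the median over all genes tested went from 0.05 to 0.44, and 8572 genes were called higher and 1540 lower, against 4399 and 3858 with TMM. COQ4, COQ9, COQ8A and COQ5 were then at 0.0106, 0.0274, 0.10 and 0.13 and not called (edgeR adjusted p = 0.915, 0.781, 0.335 and 0.273). COQ7, PDSS2, COQ2 and COQ6 were called higher, at 1.21, 0.65, 0.53 and 0.29. A change of scaling shifts all genes by nearly the same amount, so distances from the median of all genes had to stay nearly fixed. COQ7 lay 0.77 above that median under both scalings, and COQ4 lay 0.43 below it under both. These distances therefore do not test which scaling is right.

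**Figure D2:**
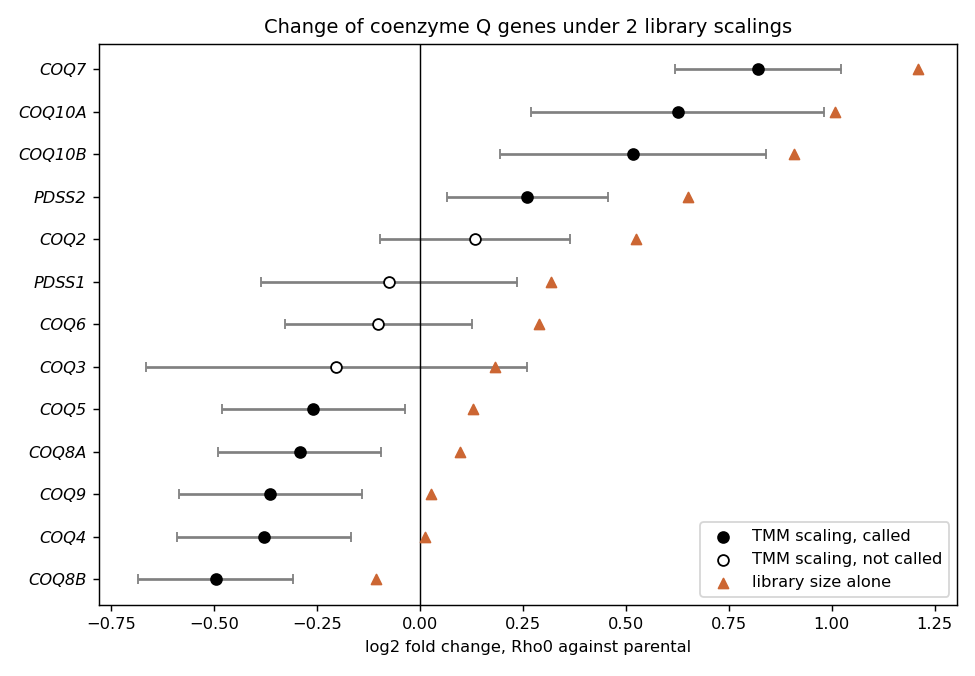
Log2 fold change of Rho0 against parental (horizontal axis) for the 10 synthesis genes with COQ8B, COQ10A and COQ10B. Circles are the TMM-scaled fit with 95% intervals, filled where called, and triangles the fit scaled by library size alone. COQ7 lies highest under both scalings (0.82 and 1.21), and COQ4 goes from -0.38 to 0.0106.

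Ratios of 2 genes within a library do not depend on that scaling, and 3 of the 4 partner pairs compared differed between the lines. The share of all gene pairs that would differ was not computed. CPM ranges of the groups did not overlap for 50.9% of all single genes, so this count says little about partner pairs. COQ7 had 0.134, 0.139, 0.129 and 0.159 counts for each count of its partner COQ9 in the parental libraries. In Rho0 the ratio was 0.302, 0.332, 0.279 and 0.366, above each parental value, and the geometric mean ratio was 2.28-fold higher (log2 difference 1.19, exact permutation p = 0.0286, two-sided, with 0.0381 after adjustment over the 4 pairs). With 70 arrangements of the libraries no smaller p can be reached. COQ7 was higher and COQ9 lower, each with no overlap of the groups, so their ratio had to separate. This p therefore adds nothing to the calls of the 2 genes. PDSS1 to PDSS2, the tail synthase subunits, went from 0.400, 0.488, 0.424 and 0.386 to 0.380, 0.301, 0.321 and 0.343. The groups were separate by a narrow margin (log2 difference -0.33, exact permutation p = 0.0286, adjusted 0.0381). COQ8A to its paralog COQ8B went from 1.08, 1.0, 1.09 and 1.05 to 1.24, 1.33, 1.15 and 1.17, a log2 difference of 0.20 (exact permutation p = 0.0286, adjusted 0.0381). The 2 paralogs COQ10A and COQ10B kept overlapping ratios, 0.771 to 1.49 in the parental and 0.910 to 1.45 in the Rho0 libraries (log2 difference 0.13, exact permutation p = 0.600). COQ7 made up 3.60% to 4.12% of the summed CPM of the 10 genes in the parental libraries and 6.90% to 8.48% in Rho0, while COQ4 made up 28.8% to 30.1% and 25.4% to 27.1%.

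**Figure D3:**
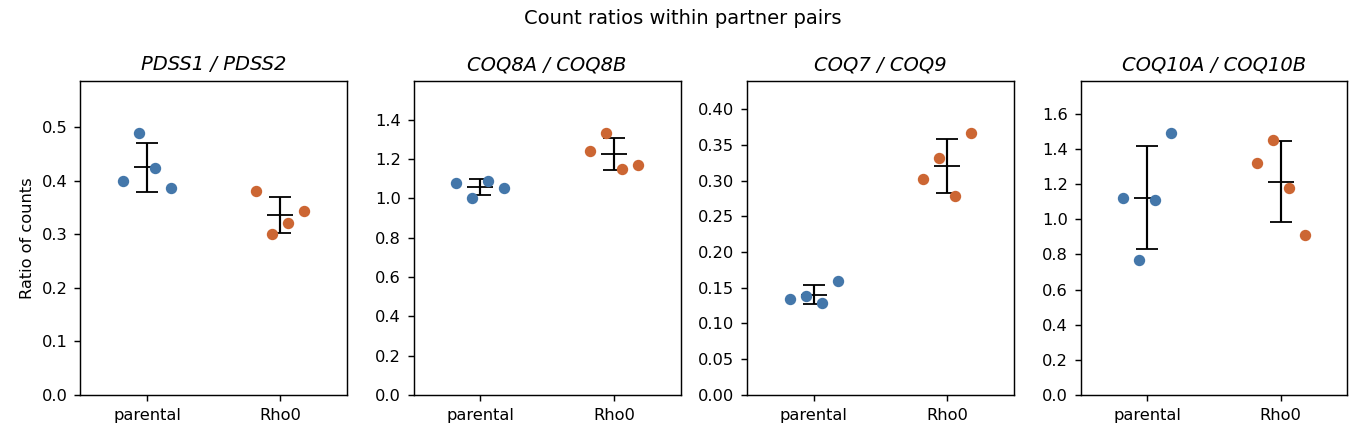
Ratio of estimated counts of the first to the second gene of each pair (vertical axis, from 0) in the 4 parental (blue) and 4 Rho0 (orange) libraries, with the mean and SD as black bars. The COQ7 to COQ9 ratio is 0.129 to 0.159 in the parental and 0.279 to 0.366 in the Rho0 libraries, and the COQ10A to COQ10B ratios overlap.

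Per kilobase of coding transcript, levels spanned a wide range among the 10 genes. In the parental line COQ4 was highest at 65.6 ± 3.85 CPM per kilobase (SD, n = 4), followed by COQ9 at 38.1, COQ5 at 17.9, COQ6 at 9.11 and COQ8A at 7.78, with ranges that did not overlap between neighbours. COQ7 (4.63), COQ2 (4.34) and PDSS2 (4.27) came next with overlapping ranges, and PDSS1 (2.66) and COQ3 (2.20) were lowest and overlapped too. In Rho0 the same 4 genes led, at 50.5, 29.6, 15.0 and 8.50 CPM per kilobase for COQ4, COQ9, COQ5 and COQ6. COQ7 at 8.18 then overlapped COQ6 and lay above COQ8A (6.36), with no overlap to it. The length is the median over coding transcripts of the GENCODE basic set, and the transcripts used in these cells are not known. With the median over all annotated transcripts, COQ7 ranked above COQ8A in both lines and above COQ6 in Rho0.

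Other genes tied to coenzyme Q also went both ways, with 3 of 10 tested called higher and 4 lower (70.0% called, against 54.4% of all genes tested; median log2 fold change -0.013). The shares over all genes were 29.0% higher and 25.4% lower, so these counts say little about the list. With library size alone, 6 were higher and 1 lower. COQ10A and COQ10B, lipid-binding proteins needed for coenzyme Q to work in respiration, were both higher. COQ10A was at 7.06, 5.32, 5.15 and 8.32 CPM in the parental libraries and at 9.78, 11.8, 9.43 and 9.14 CPM in Rho0 (log2 fold change 0.63, SE 0.16, edgeR adjusted p = 0.00718). COQ10B was at 6.33, 6.91, 4.64 and 5.58 CPM and at 7.40, 8.13, 7.97 and 10.0 CPM (0.52, SE 0.15, edgeR adjusted p = 0.0118). For both genes each Rho0 library lay above each parental one, and both were called in all 18 alternatives. The third gene higher was PPTC7, a mitochondrial phosphatase, with a log2 fold change of 0.45, named after its value was seen because the count is small, and its groups overlapped. COQ8B, the paralog of COQ8A, was at 19.9, 21.9, 21.3 and 21.5 CPM in the parental libraries and at 16.6, 14.2, 15.3 and 13.7 CPM in Rho0, with no overlap (-0.50, SE 0.09, edgeR adjusted p = 5.97e-04). With library size alone as the scale it was at -0.11, past no threshold (edgeR adjusted p = 0.301), and its exons overlap those of ITPKC on the other strand (-0.25). The related kinase-like genes ADCK5 and ADCK2 had log2 fold changes of -0.60 and -0.56, lost as calls with that scaling (-0.22 and -0.17). FDX2, a mitochondrial ferredoxin, was at -0.72 and stayed called with it (-0.33).

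Most of the genes listed for the mevalonate pathway, which supplies the tail's isoprene units as well as cholesterol, and for its branches were lower in Rho0. Of 11 tested, 6 were lower and 1 higher, against 25.4% lower and 29.0% higher over all genes, and the median log2 fold change was -0.86. The share called in either direction, 63.6%, was near the 54.4% of all genes. With library size alone 6 were lower and 4 higher. The largest changes were those of FDFT1 (-1.72), HMGCS1 (-1.63), ACAT2 (-1.55) and MVD (-1.49), each called in all 18 alternatives. FDFT1 encodes squalene synthase, which lies on the branch to cholesterol and not on that to the tail. GGPS1, which makes geranylgeranyl diphosphate, was the 1 gene called higher (0.56), and it was named for that after its value was seen. The tail synthase subunits downstream, at 0.26 for PDSS2 and -0.07 for PDSS1, were not among the genes lower. On the ring side, the tyrosine catabolism genes HPD and TAT and the candidate HPDL did not pass the filter, and their highest value in any library was 0.514 CPM.

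The 13 tested genes for enzymes that hand electrons to coenzyme Q include ETFA and ETFB, whose product passes them on by way of ETFDH. Of the 13, 1 was higher and 5 lower (46.2% called, against 54.4% of all genes). The median log2 fold change was -0.10, and with library size alone 7 were higher and 0 lower. DHODH, of pyrimidine synthesis, was at 8.98 ± 0.441 and 8.96 ± 0.118 CPM (SD, n = 4 each; log2 fold change -0.0040, 95% interval -0.19 to 0.18), but it was called at 0.39 when scaled by library size alone. AIFM2, which reduces coenzyme Q at the plasma membrane, was at 0.05 (95% interval -0.18 to 0.27), SQOR, the sulfide oxidoreductase, at -0.10 (-0.31 to 0.10), ETFDH at -0.26 (-0.53 to 0.01) and GPD2 at 0.32 (-0.08 to 0.71), none of them called. With scaling by library size alone, AIFM2, SQOR and GPD2 were called higher, at 0.43, 0.29 and 0.71. Without Rho0 replicate 1, SQOR was called at -0.22 and GPD2 at 0.43 (edgeR adjusted p = 0.0274 and 0.0231), and without Rho0 replicate 4 GPD2 was at 0.09. ETFDH was called at -0.36 with the length and GC correction (edgeR adjusted p = 0.0105). NQO1, a cytosolic quinone reductase, was higher (0.64). The electron transfer flavoprotein subunits ETFA and ETFB and the complex II subunit SDHB were lower, at -0.49, -0.39 and -0.46, and with library size alone none of these 3 was called. Of 9 nuclear subunits of complex III, which oxidises coenzyme Q, 6 were lower and 1 higher (77.8% called, against 54.4% of all genes, 25.4% lower and 29.0% higher; median -0.55). The largest changes were in CYC1 (-0.93), UQCR11 (-0.76), UQCRQ (-0.72) and UQCR10 (-0.64), which were called in all 18 alternatives. With library size alone 4 of the 9 were lower and 3 higher.

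**Figure D4:**
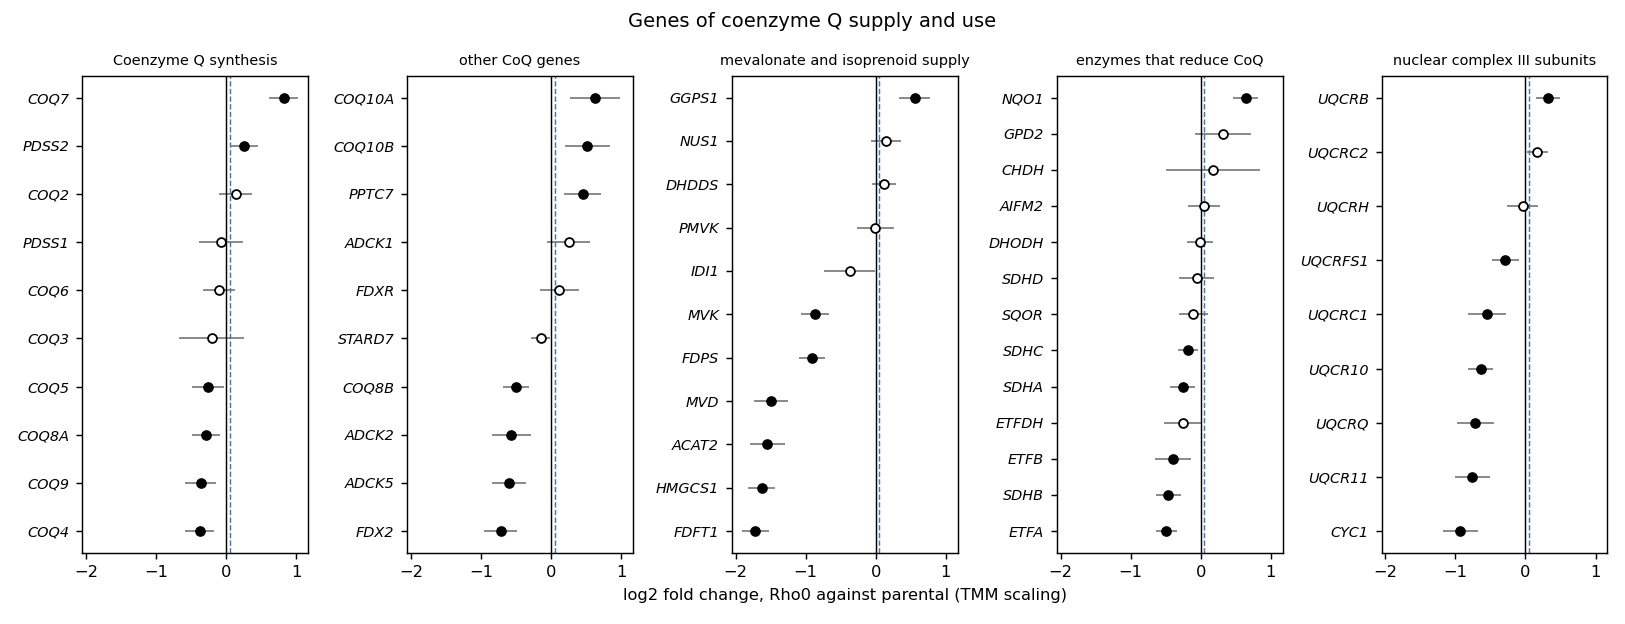
Log2 fold change of Rho0 against parental (horizontal axis) with 95% intervals for the tested genes of 5 lists, filled where called. The dashed line is the median of all genes tested (0.05). The mevalonate list reaches from -1.72 for FDFT1 to 0.56 for GGPS1, and the synthesis genes from -0.38 for COQ4 to 0.82 for COQ7.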

How the data were processed

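Poly(A)-enriched, strand-specific RNA-seq libraries were made from 4 parental and 4 Rho0 cultures, per the labels' protocols. The authors deposited estimated counts for 38010 Ensembl gene IDs, not normalized, and a table of 12885 genes in log2 units whose scaling the sources used here do not state. Per the submitters' processing notes the tools were kallisto, limma and edgeR and the build was GRCh38, with no version or role. No column belonged to a sample outside the 8.

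Estimated counts were rounded and fitted over all genes with the quasi-likelihood test of edgeR 4.0.16 under R 4.3.3, scaled by TMM and filtered by filterByExpr at a minimum count of 10, with group as the term. Standard errors are the log2 fold change over the square root of F. Pair ratios had 0.5 added to each count and an exact permutation test of the group means. Symbols, lengths and coordinates came from GENCODE 29 and a gene name table, which matched all 77 genes of the lists. Members and lists were chosen with earlier results of these data known. The text names the 10 members, 8 fixed genes and, of each related list, up to 4 called genes with the largest change and at least 5 CPM in the higher group. Some genes first placed in the related lists are not reported here, and the lists' counts leave them out. In simulated data, with 50 genes changed at each fold, 60% of 1.5-fold and 94% of 2-fold changes were called. Few genes changed there, unlike these data with 54.4% called, so the simulation does not test the scaling. The alternatives were other scalings and filters, DESeq2 1.42.0, limma-voom and limma-trend (limma 3.58.1), a length and GC correction, the replicate number as a block, and each library left out in turn. No 2 replicates of a group agreed within sampling noise (lowest chi-square per degree of freedom 4.21). Depth sets how small a change can be called, most of all for COQ3.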

Additional observations from a re-analysis of the deposited data

Results flagged for a closer look

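Values of 33 named genes were screened for single libraries that stand apart, by comparing the gap to the nearest library with the range of the 4. Of 66 groups screened, 4 held such a library, and chance gives about 1 in 20. COQ3 was at 3.16 CPM in parental replicate 4, against 1.80 to 1.88 CPM in the other parental libraries. FDX2 was at 14.8 CPM in parental replicate 1, below 16.3 to 16.6 in the others. SDHB was at 36.9 CPM in parental replicate 3, below 40.0 to 40.6. UQCR11 was at 23.4 CPM in Rho0 replicate 1, above 17.3 to 18.3 in the other Rho0 libraries.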

How the results depend on the processing

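COQ7, COQ10A and COQ10B kept their direction and call in all 18 alternatives, and COQ4 and COQ9 in 17. Scaling by library size alone gave 4 members higher and 0 lower, 6 and 1 of the other coenzyme Q genes, 7 and 0 of the reducing enzymes, 4 higher for the mevalonate list and 3 for complex III. It turned the sign of COQ4 (0.0106), COQ9 (0.0274), COQ8A (0.10), COQ5 (0.13), COQ6 (0.29), DHODH (0.39) and SQOR (0.29), and of PDSS1 (0.32), COQ3 (0.18) and ETFDH (0.13), called under neither scaling. DESeq2 size factors, the DESeq2 Wald test, no filter and the length and GC correction each left 1 member higher, the lost one being PDSS2. No filter and the filter of 50 counts each left 3 members lower, the lost one being COQ5. For complex III, 2 were higher with the filter of 50 counts and with limma-trend, and 0 with the length and GC correction. The cause of these changes was not tested.

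Leaving out 1 library gave 1 to 2 members higher and 3 to 4 lower, 1 to 2 reducing enzymes higher and 3 to 6 lower, and log2 ratio differences of -0.39 to -0.27 for PDSS1 to PDSS2, 0.16 to 0.23 for COQ8A to COQ8B and 1.12 to 1.25 for COQ7 to COQ9, with adjusted exact permutation p of 0.0381 to 0.0762. With 35 arrangements no p under 0.0286 can be reached, and a pair at that limit passes the adjustment only where 3 of the 4 pairs are at it. COQ7 to COQ9 was at the limit in all 8 fits. The 3 adjusted calls were lost without any 1 of the parental replicates and without Rho0 replicate 2. In each of these fits PDSS1 to PDSS2 had an exact permutation p of 0.0571, as had COQ8A to COQ8B without parental replicate 2 or 4. For COQ7 to COQ9 the loss therefore follows from the design. COQ10A to COQ10B, not called in any of them, ranged from -0.03 to 0.28.

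Whether replicate numbers pair the libraries is not known. Correlations of deviations between same-numbered libraries were -0.13, 0.04, 0.00185 and 0.155, within the -0.25 to 0.19 between libraries of different number. So few values cannot exclude a pairing. The replicate block left 2 members higher and 4 lower, and 4215 genes higher and 3802 lower among all tested, against 4399 and 3858 without it. In the paired sign-flip test, log2 ratio differences are the same by arithmetic (-0.33, 0.20 and 1.19), and with 4 pairs no call is possible (adjusted exact p = 0.167).

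Depth limits COQ3 most, with 29 to 84 counts a library, and at the filter of 50 counts it was not tested.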
